A study of Caenorhabditis elegans with 16 samples.

Results

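The transcriptional response to cold was examined in *Caenorhabditis elegans* that carry mutations in both *daf-16* and *ets-4*. The 4 libraries labelled *ets-4*(*rrr16*) X and *daf-16*(*mu86*) I were selected by genotype and temperature from the 16 libraries of the study. Of these 4, 2 came from animals kept for 24 h at 4 °C after 2 h at 10 °C, and 2 from animals at 20 °C. Each library was made from the poly-A RNA of about 1000 whole animals on day 1 of adulthood, in the N2 background. The cold animals were day 1 adults before the 2 h at 10 °C and 24 h at 4 °C. The 20 °C animals were given as day 1 without these hours, so that the added time and the temperature cannot be told apart. The other 12 libraries, of wild type (wt), *ets-4*(*rrr16*) and a double mutant of *pqm-1* and *ets-4*, were treated in the same way and entered the same statistical fit. Both double mutants and the single mutant share the *ets-4* allele, so that the comparison with the *ets-4* single mutant differs in *daf-16* alone. Whole animals were sequenced, so that fewer cells of a type and less RNA per cell cannot be told apart. The 4 libraries held 36338790 and 36049588 counts at 4 °C and 32046029 and 48770269 counts at 20 °C, which also spanned the range of all 16 libraries. Levels are given as CPM, counts scaled for library size, in the order replicate 1 and replicate 2, and p-values are from edgeR's quasi-likelihood test with Benjamini-Hochberg adjustment over all genes tested. Fold changes are on the log2 scale with their standard error (SE), and n was 2 libraries per group.

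DAF-16 is the FOXO transcription factor at the end of the insulin pathway. When signalling from the insulin receptor DAF-2 through the kinases AKT-1 and AKT-2 is low, DAF-16 enters the nucleus and activates genes for stress resistance and metabolism. ETS-4 is a transcription factor of the ETS family whose mRNA is degraded by the RNase REGE-1, and both factors act in the intestine, the main organ of fat storage and yolk production. In cold, ectothermic animals are known to remodel membrane lipids and the use of stored fat.

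The mutated genes were examined first. The *daf-16* transcript (WBGene00000912, WBcel235 chromosome I, 10750498 to 10776703) stood at 104.3 and 116 CPM at 4 °C and at 107 and 175 CPM at 20 °C in the double mutant. It stood at 247 and 226 CPM at 4 °C and at 163.4 and 185 CPM at 20 °C in *ets-4*. Both double mutant libraries at 4 °C were below both *ets-4* libraries, whereas at 20 °C the groups overlapped. The difference from *ets-4* was -1.103 at 4 °C (SE 0.19, adjusted p = 0.0337) and -0.31 at 20 °C (SE 0.19, adjusted p = 0.452). A count per gene does not tell whether reads fell inside or outside a deleted segment. Within the double mutant, the change of *daf-16* between temperatures was -0.35 (SE 0.19, adjusted p = 0.159), and without the 20 °C library of replicate 1 it was -0.65 (adjusted p = 0.00458).

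The *ets-4* transcript (WBGene00017687, chromosome X, 6518883 to 6522667) stood at 7.35 and 12.8 CPM at 4 °C and at 84.9 and 186 CPM at 20 °C in the double mutant. In wt it stood at 60.3 and 84.5 CPM at 4 °C and at 26.3 and 25.9 CPM at 20 °C. The libraries labelled as the double mutant were thus below wt in the cold and above wt at 20 °C, without overlap. The difference from wt was -2.85 at 4 °C (SE 0.53, adjusted p = 0.0202) and 2.38 at 20 °C (SE 0.51, adjusted p = 0.0264). Within the double mutant *ets-4* fell by 3.75 (SE 0.55, adjusted p = 0.000424). The strains *ets-4* and *pqm-1; ets-4*, which carry the same *ets-4* allele, had changes of -4.16 and -3.73, so the fall was not particular to the double mutant.

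Targets of DAF-16 gave a check that does not use the mutated transcripts. The metallothionein gene *mtl-1* stood at 0.285 and 0.388 CPM at 4 °C in the double mutant and at 10.4 and 8.22 CPM in *ets-4*. At 20 °C it stood at 0.0927 and 0.176 CPM in the double mutant and at 0.600 and 1.58 CPM in *ets-4*. The double mutant was therefore the lower strain at both temperatures, by -4.78 at 4 °C (SE 0.48, adjusted p = 0.00192) and by -2.95 at 20 °C (SE 0.50, adjusted p = 0.0661, and 0.0106 when the replicate number entered as a block). The mitochondrial superoxide dismutase gene *sod-3* was also lower in the double mutant, by -3.03 at 4 °C (SE 0.35, adjusted p = 0.00311) and by -1.73 at 20 °C (SE 0.32, adjusted p = 0.0987, and 0.0093 with the block).

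Cold changed a large share of the transcriptome without DAF-16 and ETS-4. Of the 15775 genes tested, 3005 (19%) were higher and 3070 (19.5%) were lower at 4 °C, together 38.5%. The rises were mostly small and the falls were larger. The median log2 fold change was 0.63 among the genes that rose and -1.47 among those that fell, against -0.03 over all genes tested. At least a 2-fold change was reached by 1013 of the genes that rose and by 2060 of those that fell, and at least a 16-fold change by 122 and 165. Genes called higher had a median of 38.4 CPM at 20 °C, against 8.26 CPM for those called lower and 9.08 CPM for all genes tested. Small changes are harder to detect in genes with few reads, and the part of this in the difference was not tested. When replicate number was a block, 4068 genes (25.8%) were higher and 4490 (28.5%) lower, and all but 1 of the calls without the block were kept. Without the 4 °C library of replicate 1, 1907 genes were higher and 2129 lower.

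By the rule of the study, at least a 2-fold change in both same-numbered pairs after adding 8 to scaled counts, 720 genes (3.52%) rose and 2347 (11.5%) fell in all 20447 genes, while 8 moved 2-fold in opposite directions in the pairs. The edgeR test also called 701 of those 720 genes and 1716 of those 2347. Across the genes tested, Pearson's r between the log2 changes of both pairs was 0.891, as a description, since genes are not independent replicates.

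**Figure D1:**
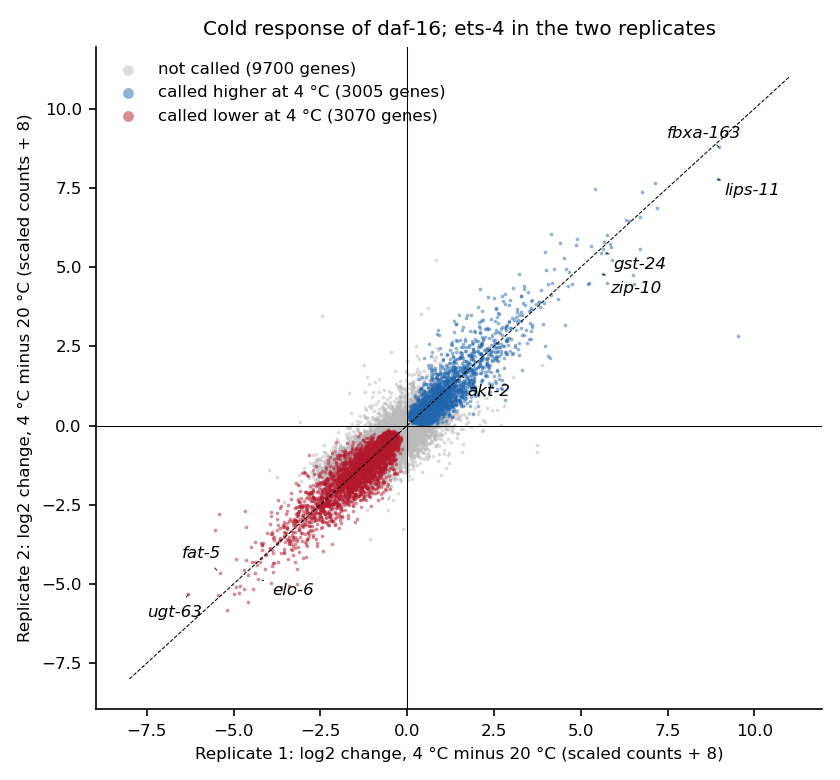
Log2 change from 20 °C to 4 °C of each tested gene in *daf-16; ets-4*, in replicate 1 (horizontal axis) and replicate 2 (vertical axis), from counts scaled for library size after adding 8. Blue points are the 3005 genes called higher, red points the 3070 called lower and grey points those not called. The dashed line marks equal change in both replicates, and *fbxa-163* and *lips-11* lie at the upper right, far from *fat-5*, *elo-6* and *ugt-63* at the lower left.

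The largest rises started from transcripts at low levels at 20 °C. The F-box gene *fbxa-163* (chromosome II, 1609252 to 1610730), from a family of substrate receptors for ubiquitin ligases, stood at 0.0309 and 0.137 CPM at 20 °C and at 122.9 and 152 CPM at 4 °C. Its change was 10.45 (SE 0.49, adjusted p = 2.98e-07). The gene *lips-11* (chromosome II, 1108841 to 1111001), of a family of lipases, went from 0.124 and 0.294 CPM to 167 and 111 CPM, a change of 9.25 (SE 1.12, adjusted p = 0.000117). Both 4 °C libraries lay far above both 20 °C libraries for each of these genes. The small nematode-specific peptide gene *nspe-6* went from 0.0618 and 0.0587 CPM to 38.5 and 53.6 CPM (9.51, SE 0.65, adjusted p = 2.48e-06).

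Several of the strongest rises were neighbours on the right arm of chromosome V. There *srw-86*, a gene of a chemoreceptor family, and the genes *C25F9.12*, *C25F9.11* and *C25F9.16*, known by sequence name only, lie between 19400077 and 19434901. *C25F9.11* rose from 0.34 and 0.705 CPM to 82.0 and 109 CPM (7.43, SE 0.36, adjusted p = 2.98e-07). *C25F9.12* rose from 0.0927 and 0.0979 CPM to 31.7 and 29.4 CPM (8.27, SE 0.47, adjusted p = 1.14e-06). For *C25F9.16*, 2 counts at 20 °C gave a ratio of 455.5 with a 95% counting interval of 125.7 to 3768, which covers counting error only. These 4 genes were picked as rises, so their shared direction follows from the selection, and the other genes of the interval were not examined. *srw-86* rose from 0 and 0.0783 CPM to 7.55 and 6.13 CPM, with an adjusted p of 0.000333.

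The other largest rises were of 6.61 to 8.18 on the log2 scale. They included *clc-11*, of the claudin-like family of membrane proteins, at 11.6 and 72.0 CPM in the cold against 0.0618 and 0.196 CPM. Its replicates differed widely at 4 °C but did not overlap the 20 °C libraries (8.18, SE 1.57, adjusted p = 0.00224). The F-box gene *fbxa-30* and *sdz-35*, named for its dependence on SKN-1 in the zygote, rose by 6.82 and 6.96. *F19B10.13*, *C08E8.3*, *C49G7.7*, *M60.7* and *F08G2.5* are genes without a descriptive name. Among them *M60.7*, at 128 and 191 CPM, and *F08G2.5*, at 116 and 191 CPM, were the most abundant in the cold, from 1.27 and 1.88 CPM and from 1.205 and 1.86 CPM at 20 °C.

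The 15 largest falls included several enzyme and transporter genes. *ugt-63*, a UDP-glucuronosyltransferase gene of detoxification, went from 37.2 and 37.5 CPM at 20 °C to 0.285 and 0.776 CPM at 4 °C (-6.12, SE 0.42, adjusted p = 2.48e-06). *cpt-5*, of the carnitine palmitoyltransferase family that carries fatty acids into mitochondria, went from 35.9 and 27.1 CPM to 0.655 and 0.499 CPM (-5.76, SE 0.44, adjusted p = 4.47e-06). *gcsh-1*, for the H protein of the glycine cleavage system, went from 33.6 and 33.4 CPM to 0.940 and 0.832 CPM (-5.24, SE 0.26, adjusted p = 2.98e-07). In each case both cold libraries lay below 1 CPM. *hacd-1*, a hydroxyacyl-CoA dehydrogenase gene of fatty acid oxidation, kept 2.14 and 2.47 CPM from 48.5 and 91.4 CPM (-4.93, SE 0.45, adjusted p = 1.95e-05). The haem transporter gene *hrg-4* fell from 5.62 and 13.4 CPM to 0.370 and 0.222 CPM. Of the remaining large falls, *slc-36.2* belongs to a family of amino acid transporters and *col-149* to the cuticle collagens. They were at 7.81 and 9.44 CPM and at 16.15 and 14.3 CPM at 20 °C, and every cold value of both was below 0.4 CPM. *Y48E1B.8* changed most (-7.16, SE 0.85, adjusted p = 9.28e-05), and *F22F7.8*, *pgph-3*, *T28D6.3*, *ppat-1*, *cest-28* (a carboxylesterase gene) and *math-40* (a gene of the MATH domain family) fell by 5.04 to 6.70.

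**Figure D2:**
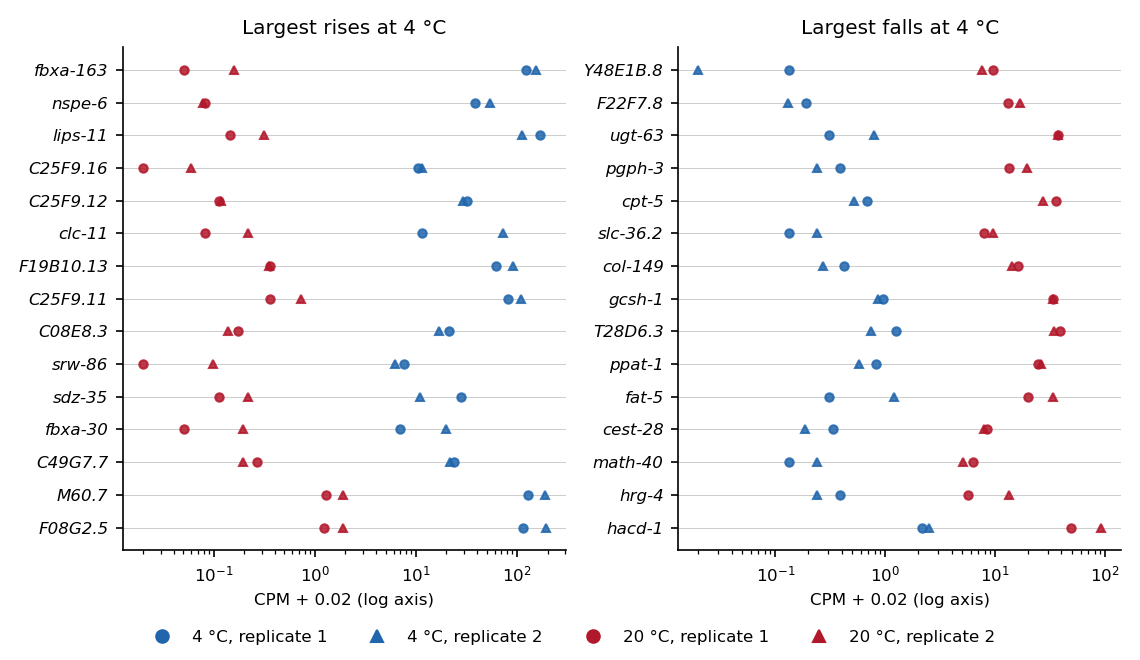
CPM plus 0.02 on a log axis in each *daf-16; ets-4* library for the 15 largest rises (left) and the 15 largest falls (right) among called genes with at least 5 CPM in both libraries of the higher temperature. Blue marks 4 °C and red 20 °C, with circles for replicate 1 and triangles for replicate 2. In every row the blue and red marks are apart. Among the rises, *clc-11* has the widest spread on this axis between its cold replicates, 11.6 and 72.0 CPM.

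Genes for making unsaturated and long fatty acids fell in part. Desaturases insert double bonds into acyl chains, which keeps membranes fluid, and elongases lengthen the chains. Of 7 desaturase genes, 0 rose and 3 fell, with a list median of -0.39. Counts of list members here and below stand beside 19% of all genes tested that rose and 19.5% that fell. The palmitoyl desaturase gene *fat-5* (chromosome V, 17725004 to 17726818) went from 19.7 and 33.7 CPM at 20 °C to 0.285 and 1.19 CPM in the cold (-5.17, SE 0.55, adjusted p = 5.3e-05). The stearoyl desaturase gene *fat-6* went from 501 and 417 CPM to 77.4 and 48.2 CPM (-2.87, SE 0.46, adjusted p = 0.000793). Its close relative *fat-7* stood at 149.2 and 388 CPM at 20 °C and at 108 and 249 CPM at 4 °C, with overlapping groups (-0.59, SE 0.71, adjusted p = 0.534). The desaturases of polyunsaturated fatty acids moved little. *fat-1* fell by 0.20 (SE 0.07, adjusted p = 0.0359), a call lost when any 1 of the 4 libraries was left out (adjusted p of 0.0879 to 0.197). *fat-2* and *fat-4* changed by -0.14 and 0.12 (adjusted p = 0.625 and 0.514). *fat-3* changed by -0.39 (SE 0.25, adjusted p = 0.247, and 0.00654 with the block).

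Elongase genes fell more uniformly. Of 9 tested, 6 fell and 0 rose, with a median of -1.61, and 6 remained the count of falls when each library was left out in turn. *elo-6* (chromosome IV, 5386629 to 5388559), needed for branched-chain fatty acids, went from 260 and 383 CPM to 13.6 and 13.8 CPM (-4.55, SE 0.21, adjusted p = 2.37e-07). *elo-5*, of the same branched-chain pathway, went from 258 and 317 CPM to 27.4 and 37.7 CPM (-3.14, SE 0.22, adjusted p = 2.28e-06). *elo-2*, which elongates palmitic acid, went from 206 and 299 CPM to 45.3 and 46.2 CPM (-2.46, SE 0.18, adjusted p = 2.84e-06). The cold replicates of these genes were close to each other and several times below both 20 °C libraries. *elo-9* fell by 2.27 and *elo-1*, which acts on polyunsaturated fatty acids, by 0.57 (SE 0.12, adjusted p = 0.00249).

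Among 12 regulators of membrane lipids, 4 (33.3%) rose and 2 (16.7%) fell. Only 2 rose without either 4 °C library or without the 20 °C library of replicate 1, and 1 fell without either library of replicate 2. The nuclear receptor gene *nhr-80*, an activator of desaturase genes, fell from 11.4 and 13.7 CPM to 1.51 and 3.13 CPM (-2.43, SE 0.37, adjusted p = 0.000392). *mdt-15*, for a Mediator subunit that works with such receptors, rose from 128 and 190 CPM to 290 and 293 CPM (0.87, SE 0.14, adjusted p = 0.000456). *fld-1*, which opposes membrane fluidity, rose from 28.05 and 27.1 CPM to 55.6 and 55.2 CPM (1.01, SE 0.07, adjusted p = 2.72e-06). Thus *nhr-80* fell while *mdt-15* and *fld-1* rose. *paqr-2*, for a membrane sensor related to adiponectin receptors and needed for growth in cold, stood at 69.5 and 62.1 CPM against 53.7 and 56.1 CPM (0.26, SE 0.11, adjusted p = 0.0743, and 0.0106 with the block).

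Many genes of fatty acid breakdown fell. Of 64 acyl-CoA and beta-oxidation genes, 28 fell and 6 rose, with a median of -0.77, and 23 to 28 fell when each library was left out. Beside *cpt-5* and *hacd-1*, the peroxisomal oxidase genes *acox-1.4* and *acox-1.2* fell. *acox-1.2* went from 30.7 and 34.6 CPM to 2.65 and 3.27 CPM (-3.46, SE 0.16, adjusted p = 2.08e-07). *acs-2*, for a mitochondrial acyl-CoA synthetase, went from 71.8 and 36.96 CPM to 7.26 and 3.66 CPM (-3.31, SE 0.59, adjusted p = 0.0014). These falls were not shared by the core carnitine palmitoyltransferases. *cpt-1* stood at 265 and 242 CPM in the cold against 207 and 206 CPM (0.30, SE 0.11, adjusted p = 0.0538, and 0.00448 with the block), and *cpt-2* changed by 0.15 (SE 0.07, adjusted p = 0.119, and 0.0322 with the block). Of 21 lipase genes, 4 (19%, beside 19.5% of all genes) fell and 1, *lips-11*, rose, with 7 falls and 2 rises under the block. The lysosomal lipase gene *lipl-5* fell from 196 and 246 CPM to 61.8 and 114.5 CPM (-1.33, SE 0.25, adjusted p = 0.00172).

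Yolk genes fell together. Vitellogenins are lipoproteins made in the intestine and taken up by oocytes, and all 6 of their genes fell while the oocyte receptor gene *rme-2* did not pass the test (0.21, SE 0.15, adjusted p = 0.299). *vit-6* went from 19791 and 25818 CPM to 9419 and 10641 CPM (-1.19, SE 0.14, adjusted p = 6.49e-05). *vit-2*, also abundant, went from 17636 and 21513 CPM to 12125 and 13605 CPM (-0.61, SE 0.13, adjusted p = 0.00367). The fall was steepest for *vit-1*, from 5915 and 4305 CPM to 1007 and 467 CPM (-2.79, SE 0.56, adjusted p = 0.00297). The vitellogenin transcripts and *rme-2* summed to 54301 and 61752 CPM at 20 °C and to 27825 and 28469 CPM at 4 °C. *vit-3*, *vit-4* and *vit-5* are near-identical copies whose uniquely mapped reads are uncertain. They fell by 2.13, 1.47 and 1.31. Without the 20 °C library of replicate 1, only 3 yolk genes were called, with adjusted p of 0.0608, 0.0508 and 0.0517 for *vit-3*, *vit-4* and *vit-5*. Without the 4 °C library of replicate 2, 3 were called and these 3 had adjusted p of 0.074, 0.0767 and 0.1, and without the 20 °C library of replicate 2 *vit-5* had 0.0527.

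Carbohydrate synthesis from fat also had members that fell. Of 15 genes of the glyoxylate cycle, gluconeogenesis and glycerol synthesis, 5 fell and 0 rose, and 12 fell with the block. Without the 4 °C library of replicate 2, 2 fell. *fbp-1*, the fructose bisphosphatase gene of gluconeogenesis, went from 164 and 153 CPM to 78.3 and 63.3 CPM (-1.16, SE 0.13, adjusted p = 5.5e-05). *icl-1*, the enzyme of the glyoxylate cycle, stood at 162 and 120.1 CPM in the cold against 254 and 221 CPM (-0.75, SE 0.28, adjusted p = 0.0561, and 0.000243 with the block).

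**Figure D3:**
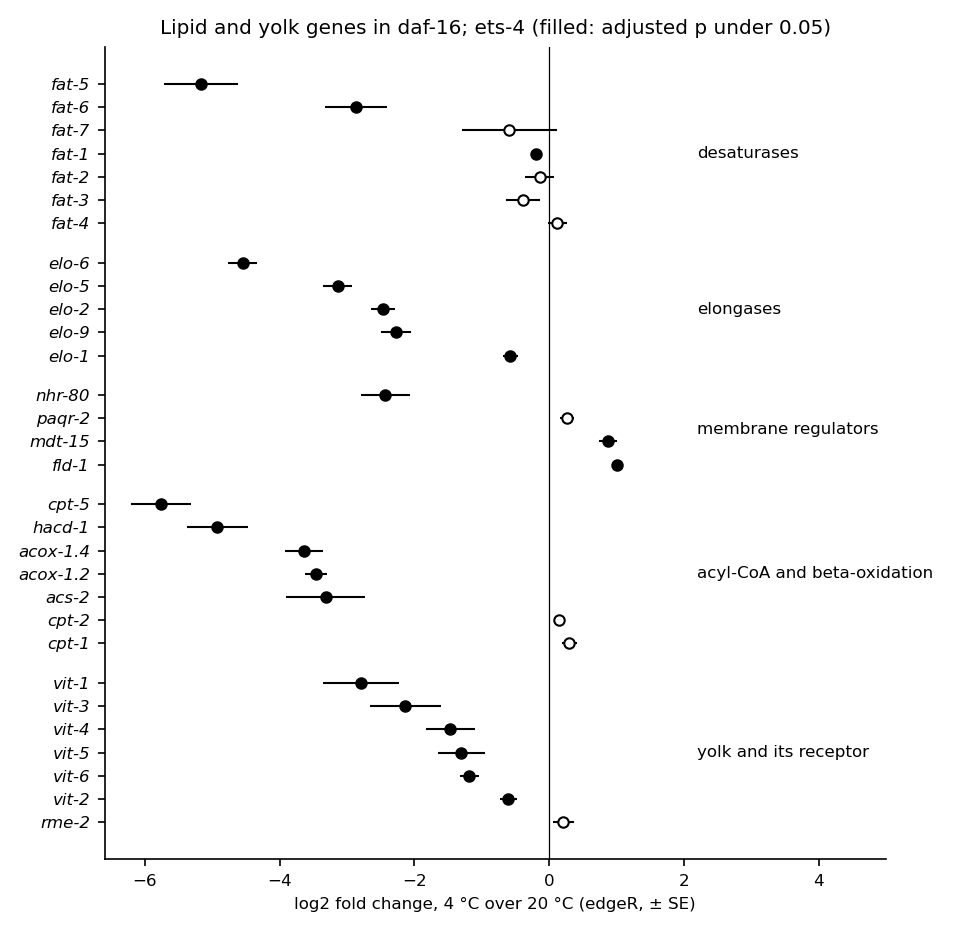
Log2 fold change of 4 °C over 20 °C in *daf-16; ets-4* for desaturase, elongase, membrane regulator, beta-oxidation and yolk genes, from edgeR, with bars of 1 SE. Filled circles passed an adjusted p of 0.05 and open circles did not. The points run from *cpt-5* at -5.76 and *fat-5* at -5.17 to *mdt-15* at 0.87 and *fld-1* at 1.01.

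Genes of the insulin pathway changed in both directions in the cold in animals that lack its output factor. Of 19 genes of the pathway and of factors linked to it, 9 (47.4%) rose and 4 (21.1%) fell. Without the 4 °C library of replicate 1, 5 rose. The list also holds *pqm-1*, counted among the rises, and *ets-4* and *rege-1*, counted among the falls. The receptor gene *daf-2* rose from 70.7 and 124 CPM to 195 and 207 CPM (1.04, SE 0.19, adjusted p = 0.00119). The kinase gene *akt-2* rose from 8.22 and 9.55 CPM to 23.5 and 31.5 CPM (1.63, SE 0.18, adjusted p = 4.99e-05). *akt-1*, its more abundant relative, rose from 209 and 200 CPM to 291 and 264 CPM (0.44, SE 0.10, adjusted p = 0.00412), a call lost without the 4 °C library of replicate 1 (adjusted p = 0.0642). Another kinase gene moved the other way. *sgk-1* fell from 31.2 and 35.7 CPM to 6.15 and 9.09 CPM (-2.13, SE 0.23, adjusted p = 3.15e-05). The kinase gene *pdk-1* changed by 0.14 (SE 0.13, adjusted p = 0.403).

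Of 30 insulin-like ligand genes tested, 3 (10%) rose and 7 (23.3%) fell. With the block 5 rose, leaving out any 1 library left 1 rise, and 4 fell without replicate 1 of either temperature. *ins-32* rose from 0.0927 and 0.0783 CPM to 0.598 and 1.66 CPM (3.69, SE 0.76, adjusted p = 0.00289), low levels throughout. The zinc finger factor gene *pqm-1* rose from 27.3 and 44.9 CPM to 207 and 223 CPM (2.57, SE 0.42, adjusted p = 0.000884). *rege-1* fell from 14.8 and 22.7 CPM to 6.38 and 7.76 CPM (-1.41, SE 0.29, adjusted p = 0.00288). Both the RNase gene and its target *ets-4* were lower in the cold libraries of this strain. The change of *rege-1* was -1.49 in *ets-4*, -1.60 in wt and -1.28 in *pqm-1; ets-4*, whereas *ets-4* changed by 1.47 in wt.

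Genes known as DAF-16 targets were then read in animals without DAF-16. Among 18 genes activated by DAF-16 (class I), 7 (38.9%) fell and 1 (5.56%) rose, with a median of -0.73, and 2 rose with the block or without the 20 °C library of replicate 1. Among 15 genes repressed by it (class II), 5 (33.3%) fell and 1 (6.67%) rose, with a median of -0.87, and without the 4 °C library of replicate 1, 1 class II gene fell. Of all genes tested 19.5% fell and 19% rose. *sod-3* fell from 1.48 and 1.39 CPM to 0.285 and 0.638 CPM (-1.63, SE 0.34, adjusted p = 0.00332). The catalase gene *ctl-2* fell from 36.6 and 45.5 CPM to 20.7 and 23.2 CPM (-0.90, SE 0.13, adjusted p = 0.000256). *aqp-1*, for a channel of water and glycerol, fell from 46.4 and 39.04 CPM to 12.5 and 9.54 CPM (-1.95, SE 0.20, adjusted p = 2.84e-05). The temperatures did not overlap in any of these genes. The class I member that rose was the linker histone gene *hil-1*, from 3.92 and 6.32 CPM to 13.5 and 14.4 CPM (1.43, SE 0.25, adjusted p = 0.00108). *dod-3* fell by 3.45, and *mtl-1* changed by 1.25 (SE 0.53, adjusted p = 0.0869). Of class II, *dod-20* rose from 0.124 and 0.294 CPM to 1.71 and 8.04 CPM (4.46, SE 1.02, adjusted p = 0.00606), with a wide spread in the cold. *lea-1*, a class I gene of desiccation tolerance, stood at 266 and 264 CPM against 189 and 216 CPM, without overlap, and did not pass the test (adjusted p = 0.169).

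Genes linked to cold death in other work were followed too. The bZIP factor gene *zip-10* (chromosome V, 11650079 to 11650762) rose from 0.772 and 2.11 CPM to 50.4 and 66.2 CPM (5.28, SE 0.58, adjusted p = 6.07e-05). Among 25 genes made up of *zip-10*, its regulator and the aspartyl and cysteine proteases of the cathepsin type, 4 rose and 10 fell. *asp-17*, an aspartyl protease gene, rose from 2.63 and 4.27 CPM to 45.7 and 208 CPM (5.18, SE 0.83, adjusted p = 0.000742). *cpr-3*, of the cathepsin B family, rose from 4.48 and 5.15 CPM to 20.0 and 74.5 CPM (3.29, SE 0.76, adjusted p = 0.00639), a call lost without the 4 °C library of replicate 2 (adjusted p = 0.0594). For both proteases replicate 2 was several-fold above replicate 1 in the cold. *asp-13* stood at 5.04 and 30.7 CPM in the cold against 233 and 292 CPM (-3.87, SE 1.22, adjusted p = 0.0285), and leaving out either 20 °C library or the 4 °C library of replicate 1 gave adjusted p of 0.0582 to 0.163. Without the 4 °C library of replicate 2, 2 members of this list rose. With the block, 16 members fell, and between 4 and 12 fell when a library was left out, 4 of them without the 4 °C library of replicate 1, 5 without the 20 °C library of replicate 2 and 6 without that of replicate 1.

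Iron genes were examined because ferritins bind iron that otherwise promotes oxidative damage. *ftn-1* (chromosome V, 7546468 to 7547579) stood at 2.31 and 0.194 CPM at 4 °C and at 0.340 and 0.235 CPM at 20 °C. Replicate 2 in the cold was the lowest of the 4 libraries and replicate 1 the highest, so the groups overlapped (2.13, SE 1.2, adjusted p = 0.192). The more abundant *ftn-2* stood at 233 and 246 CPM against 175 and 200.02 CPM (0.35, SE 0.15, adjusted p = 0.0772, and 0.0479 with the block). Of 17 iron and haem genes, 8 fell and 1 rose, with 2 rises under the block or without the 4 °C library of replicate 1. The iron exporter gene *fpn-1.2* fell from 4.11 and 6.71 CPM to 0.313 and 0.249 CPM (-4.25, SE 0.42, adjusted p = 2.03e-05). Importer genes of the same family diverged, since *smf-3* fell by 2.55 (SE 0.46, adjusted p = 0.00129) while *smf-1* rose by 0.87 (SE 0.15, adjusted p = 0.000957).

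Many autophagy genes rose while those of the vacuolar ATPase, the proton pump of lysosomes and of several epithelia, fell. Of the 49 genes of both groups, 16 rose and 21 fell, and of the 20 tested genes named *vha*, 18 fell and 0 rose. *sqst-1* (chromosome IV, 12034282 to 12036891), for the cargo receptor related to p62, rose from 40.6 and 55.3 CPM to 379 and 557 CPM (3.29, SE 0.24, adjusted p = 3.69e-06). *epg-9*, of the complex that starts autophagosomes, rose from 33.8 and 43.97 CPM to 100.2 and 114 CPM (1.46, SE 0.13, adjusted p = 9.36e-06). *bec-1*, the Beclin gene, rose by 1.17 (SE 0.15, adjusted p = 0.000141) and *lgg-1*, for the ubiquitin-like protein of the autophagosome membrane, by 0.84 (SE 0.08, adjusted p = 1.43e-05). In contrast, the pump subunit gene *vha-6* of the intestine fell from 324 and 419 CPM to 86.2 and 132 CPM (-1.77, SE 0.27, adjusted p = 0.000557). *vha-3* and *vha-5* fell by 1.82 and 1.67, and none of the 4 libraries bridged the gap between temperatures in any of these genes.

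The unfolded protein response of the endoplasmic reticulum had a share of rises near that of all genes. Of its 25 genes, 6 (24%, beside 19% of all genes) rose and 1 fell, with 14 and 3 under the block. Without the 4 °C library of replicate 1, 3 rose and 2 fell. The kinase gene *pek-1* rose from 53.3 and 60.6 CPM to 144 and 122 CPM (1.22, SE 0.15, adjusted p = 9.28e-05), and *ire-1*, the other kinase sensor gene, by 0.59 (SE 0.11, adjusted p = 0.00119). The bZIP gene *atf-4*, which acts below such kinases, fell from 83.3 and 111 CPM to 5.73 and 7.43 CPM (-3.88, SE 0.29, adjusted p = 4.17e-06). The chaperone gene *hsp-4* stood at 1015 and 477 CPM against 543 and 425 CPM (0.62, SE 0.48, adjusted p = 0.33), and *hsp-3* changed by -0.45 (SE 0.17, adjusted p = 0.057, and 0.0042 with the block). Of 10 small heat shock protein genes, 4 fell and 0 rose. The falls numbered 1 without the 4 °C library of replicate 1 or the 20 °C library of replicate 2 and 2 without the 20 °C library of replicate 1, and 1 gene rose with the block or in that last fit. *hsp-16.2* stood at 0.342 and 0.277 CPM against 0.834 and 1.14 CPM (-1.67, SE 0.62, adjusted p = 0.0522, and 0.011 with the block), and the inducible *hsp-70* fell from 3.06 and 1.68 CPM to 0.142 and 0.0277 CPM (-4.75, SE 0.78, adjusted p = 0.000659).

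Detoxification families had more falls than rises, with single members that rose sharply. Of 62 UDP-glucuronosyltransferase genes, 33 fell and 6 rose, with a median of -1.24, and 3 rose without the 20 °C library of replicate 2. Of 65 cytochrome P450 genes, 28 fell and 5 rose, with a median of -1.32. The rises numbered 9 with the block and 3 without the 20 °C library of replicate 1. Of 46 glutathione metabolism genes, 18 fell and 9 rose. Only 10 fell without either 4 °C library and 11 without the 20 °C library of replicate 1, and 5, 4 and 4 rose without the 20 °C libraries of replicates 1 and 2 and the 4 °C library of replicate 2. The glutathione transferase gene *gst-24* (chromosome II, 13610443 to 13611366) went against its family, from 2.35 and 3.17 CPM to 142 and 153 CPM (5.72, SE 0.19, adjusted p = 7.29e-08). Its relative *gst-28* fell from 21.1 and 19.2 CPM to 2.62 and 3.74 CPM (-2.66, adjusted p = 3.64e-06). *ugt-17* fell from 32.2 and 50.02 CPM to 1.31 and 2.44 CPM (-4.45, adjusted p = 4.84e-05). The P450 gene *cyp-25A3* fell from 9.82 and 11.4 CPM to 0.570 and 0.721 CPM (-4.03, adjusted p = 3.51e-07). Each of these 3 was low in both cold libraries. Another P450 gene, *cyp-13A8*, rose from 0.0309 and 0.0979 CPM to 1.48 and 1.55 CPM (4.395, SE 0.64, adjusted p = 0.000296). *skn-1*, for the factor that activates many detoxification genes, rose from 203 and 223 CPM to 367 and 348 CPM (0.75, SE 0.11, adjusted p = 0.00027).

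Of 195 nuclear receptor genes, 65 (33.3%) fell and 28 (14.4%) rose, with a median of -0.36. The falls numbered 43 without the 4 °C library of replicate 1, and the rises 16 and 15 without the 20 °C library of replicate 1 and the 4 °C library of replicate 2. *hizr-1*, the zinc-sensing receptor gene, fell from 4.20 and 5.56 CPM to 0.399 and 0.139 CPM (-4.17, SE 0.62, adjusted p = 0.000348). Of 12 genes of the hypoxia and hydrogen sulphide response, 3 (25%) rose and 5 (41.7%) fell. Only 1 rose without the 20 °C library of replicate 1 or the 4 °C library of replicate 2. *cysl-2*, a cysteine synthase relative that HIF-1 activates, rose from 38.1 and 31.5 CPM to 168 and 316 CPM (2.80, SE 0.28, adjusted p = 2.98e-05). Of 11 aquaporin genes, 6 fell, a count that was 6 in every fit with a library left out, and 1 rose, a call kept only when the library left out was the 4 °C one of replicate 1. *aqp-4* and *aqp-8* fell by 2.72 (SE 0.15, adjusted p = 4.89e-07) and 1.92 (SE 0.10, adjusted p = 3.1e-07). *irg-1* and *irg-2*, genes first described in infection, rose by 2.999 and 3.015 (adjusted p = 9.79e-05 and 0.00191), from between 0.525 and 1.08 CPM at 20 °C. Of 142 cuticle collagen genes, 36 (25.4%) fell and 7 (4.93%) rose, with 57 falls under the block and 23 without the 4 °C library of replicate 1. The rises numbered 2 without the 20 °C library of replicate 1 and 4 without either 4 °C library. *col-103* fell from 485 and 407 CPM to 26.9 and 21.2 CPM (-4.21, SE 0.17, adjusted p = 1.09e-07). Of 141 C-type lectin genes, 43 fell and 8 rose. With the block 17 rose, and 2, 4 and 4 rose without the 20 °C libraries of replicates 1 and 2 and the 4 °C library of replicate 2.

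**Figure D4:**
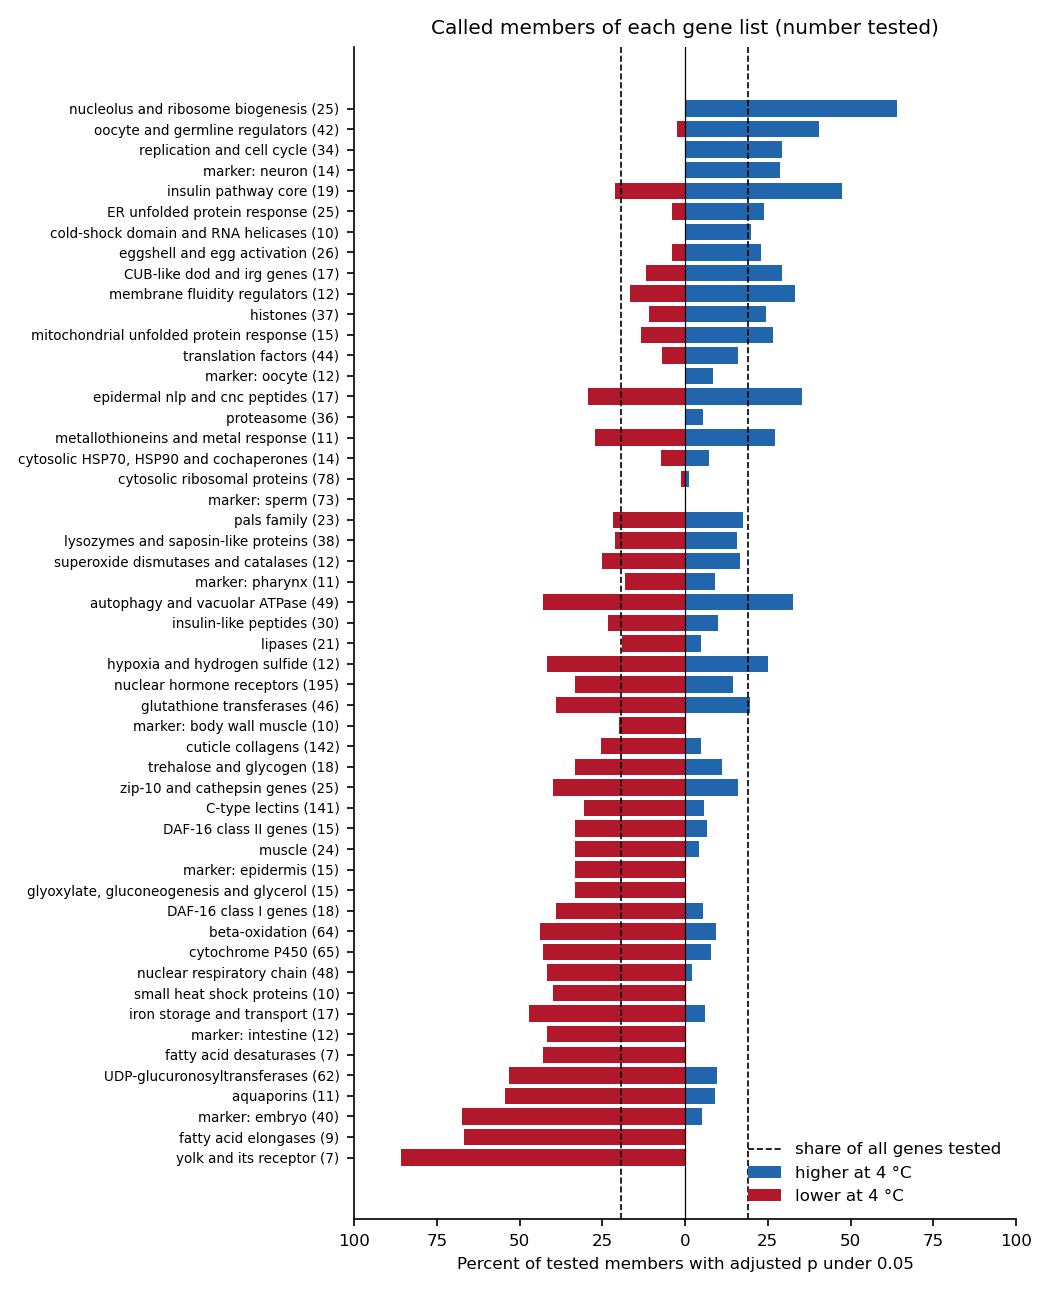
Percent of the tested members of each gene list with an adjusted p under 0.05, higher at 4 °C (blue, to the right) or lower (red, to the left), with the number tested in brackets. The dashed lines mark the shares of all genes tested, 19% higher and 19.5% lower. The nucleolar list reaches furthest to the right, with 16 of 25 genes, and the yolk list furthest to the left, with 6 of 7.

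Several genes of ribosome production rose by small amounts. Of 25 nucleolar and ribosome biogenesis genes, 16 rose and 0 fell, with a median of 0.37. The count was 5 without the 20 °C library of replicate 2 and 4 without the 4 °C library of replicate 1. *rpoa-2*, for a subunit of RNA polymerase I, rose from 94.1 and 87.6 CPM to 180 and 148 CPM (0.86, SE 0.12, adjusted p = 0.000166). *rpoa-1* and the ribosome assembly gene *pro-2* rose by 0.58 (SE 0.08, adjusted p = 0.000122) and 0.74 (SE 0.09, adjusted p = 0.000113). Of 78 cytosolic ribosomal protein genes, 1 was higher and 1 lower. Without the 20 °C library of replicate 1, 11 were higher and 0 lower, and 3 were lower with the block or without the 20 °C library of replicate 2. Without either 4 °C library 0 were lower.

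Of 42 oocyte and germline regulators, 17 rose and 1 fell, and 24 did not pass the test. The rises numbered 5 without the 4 °C library of replicate 1 and 11 without either 20 °C library. The falls numbered 5 with the block and 0 without the 20 °C library of replicate 2 or either 4 °C library. *lin-41*, a regulator of oocyte growth, rose from 391 and 472 CPM to 695 and 657 CPM (0.65, SE 0.13, adjusted p = 0.00238), and *puf-8*, an RNA-binding regulator of germ cells, by 0.65 (SE 0.12, adjusted p = 0.00168). Of 34 replication and cell cycle genes, 10 (29.4%) rose and 0 fell, and 20 rose with the block. The rises numbered 6, 4 and 3 without the 20 °C libraries of replicates 1 and 2 and the 4 °C library of replicate 1. *pole-1*, for DNA polymerase epsilon, rose from 161 and 188 CPM to 301 and 286 CPM (0.75, SE 0.12, adjusted p = 0.000629) and the checkpoint kinase gene *bub-1* by 0.50 (SE 0.07, adjusted p = 0.000319). Of 48 nuclear genes of the respiratory chain, 20 fell and 1 rose, and 8, 13 and 9 fell without the 20 °C library of replicate 1 and the 4 °C libraries of replicates 1 and 2. With the block 2 rose, and 0 without the 20 °C library of replicate 2 or the 4 °C library of replicate 1. Of 12 genes of the mitochondrial genome, 4 fell and 0 rose.

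Markers of cell types were read beside these groups. Of 73 tested sperm genes, 0 were called higher or lower, while 55 were lower with the block and 27 in a fit of the 4 libraries alone. Their summed level was 227 and 420 CPM at 4 °C and 702 and 843 CPM at 20 °C, with a list median of -1.68. The sperm markers *msp-58* and *msd-1* had 0 counts in all 4 libraries. Of 40 embryo markers, 27 fell and 2 rose (1 without the 20 °C library of replicate 1 or the 4 °C library of replicate 2), with a median of -2.06 and summed levels of 115.3 and 106 CPM against 158 and 167 CPM. Among them *pes-10*, an early zygotic transcript, fell from 4.82 and 4.35 CPM to 0.741 and 0.222 CPM (-3.25, SE 0.56, adjusted p = 0.00102). The embryo marker *sdz-35*, named above among the largest rises, went the other way, from 0.0927 and 0.196 CPM to 27.9 and 10.9 CPM. Of 12 oocyte markers, 1 rose, and 3 with the block, with summed levels of 11066 and 9888 CPM against 9737 and 8807 CPM. Thus the embryo and sperm lists were summed lower in both cold libraries, and the oocyte list higher.

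Of 12 intestinal markers, 5 fell and 0 rose, with 9 falls under the block and 3 without the 4 °C library of replicate 1, and their summed level was 926 and 1352 CPM in the cold against 1794 and 2183 CPM. The peptide transporter gene *pept-1* fell from 136 and 197 CPM to 12.7 and 24.1 CPM (-3.18, SE 0.39, adjusted p = 0.00014), and *nhx-2*, a sodium-proton exchanger gene, by 1.77 (SE 0.37, adjusted p = 0.00368). Of 15 epidermal markers 5 fell, among them *semo-1*, from 133 and 222 CPM to 9.001 and 7.29 CPM (-4.45, SE 0.38, adjusted p = 1.3e-05). Of 10 body wall muscle markers 2 (20%, beside 19.5% of all genes) fell and 0 rose. There was 1 fall without either 4 °C library and 1 rise without the 20 °C library of replicate 2. Of 11 pharynx markers 2 (18.2%, near the share of all genes) fell and 1 (9.09%) rose. Only the fit without the 20 °C library of replicate 1 kept 2 falls among those with a library left out. Of 14 neuronal markers 4 (28.6%, beside 19% of all genes) rose and 0 fell. There was 1 fall under the block, and 2 rises without the 20 °C library of replicate 1 or the 4 °C library of replicate 2. *unc-31*, needed for release of dense-core vesicles, rose from 4.05 and 6.83 CPM to 12.2 and 14.1 CPM (1.27, SE 0.22, adjusted p = 0.00108). The intestinal and embryo markers moved in the same direction as the yolk, lipid and detoxification genes, and the part of tissue composition in those results was not tested.

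The cold response was then compared with that of *ets-4*, which differs in *daf-16* alone. In *ets-4*, 2365 genes rose and 2887 fell. Both strains shared 2077 rises, 69.1% of those of the double mutant and 87.8% of those of *ets-4*, and 2478 falls, 80.7% and 85.8%. No gene, 0 in all, was called in opposite directions. The libraries of each strain were separate, and no control was shared. In wt 2036 genes rose and 2808 fell, and in *pqm-1; ets-4* 2843 rose and 3005 fell. Of the rises in the double mutant, 58.9% were also called in wt and 79.5% in *pqm-1; ets-4*, and of the falls 76.9% and 83.1%. These shares depend on how many genes were called in each strain. Conversely, 86.98% of the rises in wt and 83.996% of those in *pqm-1; ets-4* were also called in *daf-16; ets-4*. For the falls these shares were 84.05% and 84.9%. Among the genes called in both strains, 4 had the opposite direction in wt and 1 in the *pqm-1* double mutant.

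A test of the difference between the cold responses found 0 genes (0%) that differed from *ets-4* at an adjusted p under 0.05 by edgeR without the block, with 428 genes (2.71%) at an unadjusted p under 0.05, and DESeq2 found 7. Against wt and against *pqm-1; ets-4* it also found 0, with 863 genes (5.47%) and 415 genes (2.63%) at an unadjusted p under 0.05, and with the block it found 15 (0.0951%) and 4 (0.0254%). With the block the test called, against *ets-4*, 6 genes (0.038%), which were chosen for description after their values were seen. The kinase gene *akt-2* (chromosome X, 14147700 to 14152070) rose less in the double mutant. In *ets-4* it stood at 69.2 and 93.4 CPM in the cold against 10.6 and 12.1 CPM, where the double mutant had 23.5 and 31.5 CPM against 8.22 and 9.55 CPM. The difference in response was -1.21 (SE 0.16, adjusted p = 0.0229 with the block, 0.905 without it and 0.0227 by DESeq2). At 20 °C the strains were close, and in the cold both double mutant libraries were far below both *ets-4* libraries. The cold response of *akt-2* was also smaller than that of wt, by -1.03 (SE 0.16, adjusted p = 0.0467 with the block and 0.404 without it), and of *pqm-1; ets-4*, by -1.32 (SE 0.16, adjusted p = 0.0257 with the block and 0.586 without it).

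*T19E7.6* (chromosome IV, 5667547 to 5669503) rose in *ets-4* from 4.32 and 5.74 CPM to 18.3 and 18.02 CPM but stood at 7.01 and 6.75 CPM at 20 °C and 5.50 and 8.15 CPM at 4 °C in the double mutant. The temperature groups overlapped in the double mutant only, among the 4 strains. The difference from *ets-4* was -1.88 (SE 0.22, adjusted p = 0.0153 with the block, 0.525 without it and 3.53e-05 by DESeq2). *F55H12.4* fell further in the double mutant, from 70.8 and 51.3 CPM to 10.5 and 7.82 CPM, than in *ets-4*, from 72.9 and 49.04 CPM to 32.8 and 22.8 CPM (difference -1.60, SE 0.21, adjusted p = 0.0229 with the block and 1 without it).

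*T22B7.3* (chromosome X, 5647373 to 5650218) stood at 8.35 and 12.2 CPM at 4 °C and at 3.68 and 7.302 CPM at 20 °C in the double mutant (0.90, SE 0.57, adjusted p = 0.246, and 0.000518 with the block). In *ets-4* it stood at 1.77 and 4.00 CPM at 4 °C and at 3.91 and 6.38 CPM at 20 °C. Both numbered pairs were higher in the cold in the double mutant and lower in the cold in *ets-4* (difference 1.85, SE 0.25, adjusted p = 0.0229 with the block and 1 without it). The aldehyde dehydrogenase family gene *alh-5* differed by -1.02 (SE 0.12, adjusted p = 0.0153 with the block and 1 without it) and *cpi-1*, for a cystatin that inhibits cysteine proteases, by -0.76 (SE 0.10, adjusted p = 0.0229 with the block and 1 without it). DESeq2 called *akt-2* and *T19E7.6* among these 6 but not the others, with an adjusted p of 0.122 for *F55H12.4*.

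**Figure D5:**
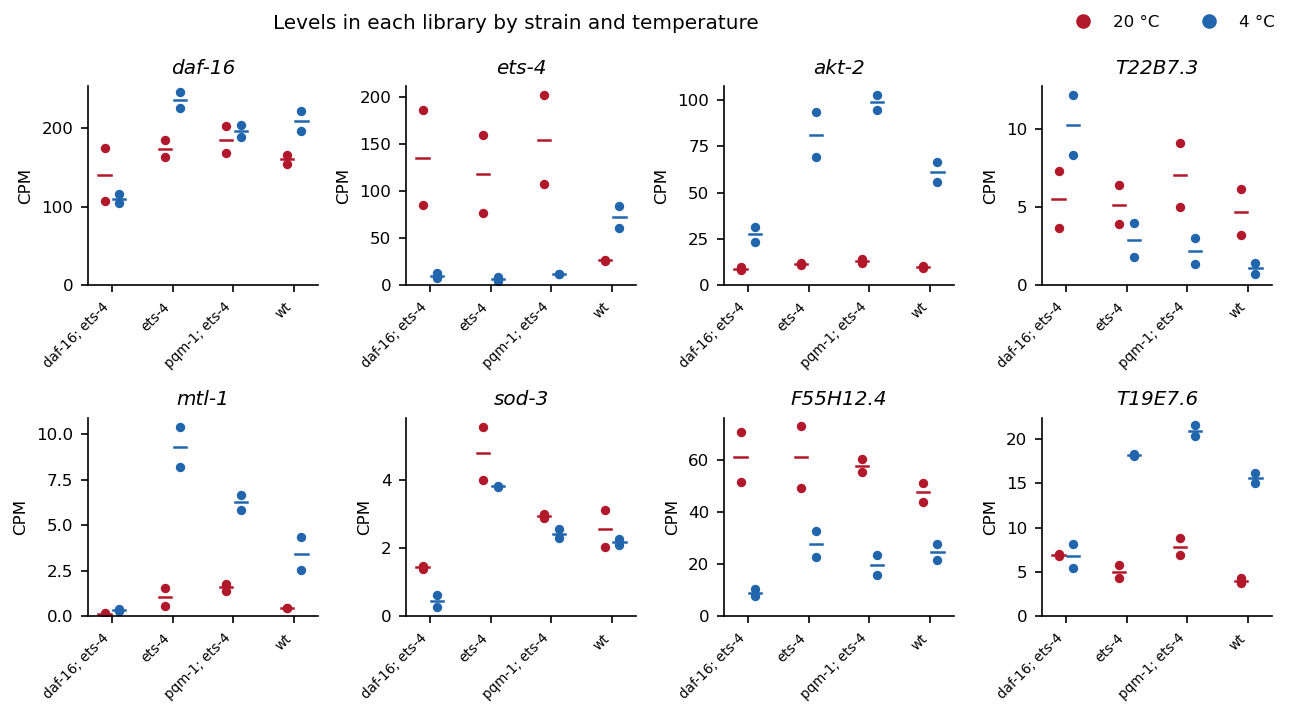
CPM in each library of the 4 strains at 20 °C (red) and 4 °C (blue) for *daf-16*, *ets-4*, *akt-2*, *T22B7.3*, *mtl-1*, *sod-3*, *F55H12.4* and *T19E7.6*. Points are libraries and short lines are means of 2 libraries, on axes that start at 0. In the cold *akt-2* reached 23.5 and 31.5 CPM in *daf-16; ets-4* and 69.2 and 93.4 CPM in *ets-4*.

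Apart from *akt-2*, the lipid, insulin and stress genes named above were not among those 6. The difference from the *ets-4* response was -0.72 for *fat-5*, -0.69 for *fat-6*, 0.41 for *elo-6*, -0.63 for *pqm-1*, 0.17 for *zip-10*, -0.10 for *sqst-1* and 0.18 for *gst-24*, each with an adjusted p of 1 without the block and at least 0.74 with it. For *mtl-1* the difference was -1.83 and for *sod-3* -1.30, with an adjusted p of 0.735 and 0.702 under the block. A p that misses the threshold does not show that the responses were alike.

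As a description, the called genes were spread unevenly over the chromosomes. On chromosome X, 14.7% of tested genes rose and 26.2% fell, and on chromosome III, 24.1% rose and 14.99% fell. Chromosome I resembled III, with 22.3% higher and 15.1% lower, while on chromosome V 17.3% rose and 23.4% fell. Among the genes named here, *mdt-15*, *atf-4* and *aqp-4* overlap another annotated gene on the same strand. On the opposite strand *ets-4*, *fat-5*, *elo-5*, *acox-1.4*, *vit-2*, *zip-10*, *sod-3*, *ctl-2*, *aqp-1*, *lea-1*, *akt-1*, *pdk-1*, *skn-1*, *ire-1*, *cysl-2*, *vha-5*, *pole-1*, *col-103*, *col-149*, *T28D6.3*, *ppat-1*, *Y48E1B.8*, *T22B7.3* and *F55H12.4* do so. Members of large families such as *fbxa*, *ugt*, *cyp* and *clec* can share reads with close copies, so that their counts are less certain.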

How the data were processed

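Poly-A RNA of whole day 1 adults was sequenced from stranded libraries with single-end reads of 50 cycles. The authors aligned reads with STAR to WBcel235, with 3 mismatches allowed and unique hits retained, and counted reads over exons of protein-coding genes. The authors deposited these counts, without normalization, for 20447 genes and 16 libraries. The annotation release and the use of strand in counting are not given in the sources used here. Total counts ranged from 32046029 to 48770269 per library, so that genes with few reads are measured with low precision.

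Groups came from the sample labels. Symbols and coordinates came from Ensembl release 115, which held 20159 of the gene IDs (98.6%). A total of 15775 genes passed filterByExpr. The counts of all 16 libraries, in 8 groups, were fitted in edgeR 4.0.16 (R 4.3.3) with TMM normalization and robust quasi-likelihood tests. Calls were made at 0.05 after Benjamini-Hochberg adjustment of p. SE is approximate, the absolute log2 fold change over the square root of the F statistic. CPM used TMM-normalized library sizes. The rule of the study was run in Python 3.11.15 on counts scaled to the mean library total, with log2 taken after adding 8. Where 1 to 3 counts remained in a group, the ratio is given with an exact 95% interval of the counts. The fits were also run on simulated counts with the same spread for all genes, and no result here rests on that run.

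Same-numbered libraries deviated from their group means together. Over 11954 genes, the correlation of these deviations was 0.306 to 0.761 in 28 pairs of groups, and 0.480 between temperatures in *daf-16; ets-4*. The replicate numbers were therefore taken to pair the samples. The main fit did not include this pairing, and a fit with the number as a block was run too. It is given beside a named gene or list where it changed a call or moved a count by over 1.5 times. The study calls the replicates biological.

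The genes and lists were chosen with earlier results of these data known. Genes named are the mutated and related genes, the 15 largest rises and falls among called genes that passed the 2-fold rule and had at least 5 CPM in both libraries of the higher temperature, up to 5 of the most changed called members of a list with members known for their role, and a few picked later, as stated beside them. Alternatives were DESeq2 1.42.0, other normalizations and filters, the 4 libraries alone, a test against a 1.5-fold change, the block, and leaving out each library. Promoter and protein sequences were not analysed here.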

Additional observations from a re-analysis of the deposited data

Results flagged for a closer look

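The cold response of the *ets-4* transcript had opposite directions in *daf-16; ets-4* and wt, a difference of -5.23 on the log2 scale. In *daf-16; ets-4* it fell from 84.9 and 186 CPM at 20 °C to 7.35 and 12.8 CPM at 4 °C, and in wt it stood at 26.3 and 25.9 CPM at 20 °C and 60.3 and 84.5 CPM at 4 °C. The edgeR test of the difference gave an adjusted p of 0.104 without the replicate block and 0.00436 with it, and DESeq2 gave 5.69e-08. In all 4 numbered pairs the direction was that of the strain. The fall was shared by the other strains with the *ets-4* allele. In *ets-4* the transcript went from 76.9 and 159 CPM at 20 °C to 4.35 and 8.83 CPM at 4 °C. In *pqm-1; ets-4* it went from 107 and 202 CPM to 11.5 and 11.8 CPM.

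*T22B7.3* was higher in the cold in both numbered pairs of *daf-16; ets-4* and lower in both pairs of wt and of *pqm-1; ets-4*. The difference was 3.02 from wt, with 3.09 and an adjusted p of 0.000407 from edgeR with the block. It was 2.60 from *pqm-1; ets-4*, with 2.70 and an adjusted p of 0.00212 with the block. Without the block the adjusted p was 0.569 and 1 from edgeR, and DESeq2 gave 0.0837 and 0.34.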

How the results depend on the processing

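Under other normalizations, filters, DESeq2 and the replicate block, 2620 to 4068 genes were higher and 2821 to 4490 lower. Falls outnumbered rises except under DESeq2 (2828 against 3157), RLE size factors (2983 against 3065) and a minimum of 1 CPM (2821 each). In the 4 libraries alone 1924 genes were higher and 2439 lower, and against a 1.5-fold change 875 were higher and 1718 lower. Leaving out each library gave 1907 to 2297 higher and 2129 to 2535 lower. Genes whose response differed from *ets-4* numbered 6 with the block and 7 with DESeq2, and 0 when any library was left out. From wt they numbered 15 with the block, 40 with DESeq2 and 0 to 26 when a library was left out. The 26 came without the 20 °C library of replicate 2 of *daf-16; ets-4*, and 1 each without the 4 °C library of replicate 1 of that strain and the 20 °C library of replicate 1 of wt. From *pqm-1; ets-4* they numbered 4 with the block, 13 with DESeq2 and 0 to 12 when a library was left out, the 12 without the 20 °C library of replicate 2 of *daf-16; ets-4*. The cause was not tested. The 2-fold rule called 1113 rises with a pseudocount of 1 and 1521 falls with one of 32. With 1 pair only it called 1024 to 1079 rises and 2999 to 3095 falls. Of 1567 alternative values for 131 named genes, 1491 kept direction and side of the threshold, 37 lost a call, 27 gained one and 12 turned sign. The block turned the cold response of 11 named genes to called (*ftn-2*, *fat-3*, *paqr-2*, *cpt-1*, *cpt-2*, *icl-1*, *hsp-3*, *hsp-16.2*, *T22B7.3*, *alh-5* and *cpi-1*) and changed no other call of a named gene's cold response. Where the block turned a difference between strains in the text to called, its adjusted p is printed there with and without the block. The turned values belonged to genes that were not called. When a library was left out, the change ranged from -0.65 to 0.022 for *daf-16*, from -0.56 to 3.02 for *ftn-1*, from -0.33 to 0.084 for *fat-2*, from -0.018 to 0.28 for *fat-4*, from -1.31 to 0.23 for *fat-7*, from -0.039 to 1.07 for *hsp-4* and from -0.32 to 0.23 for *T19E7.6*, which was also 0.0080 with DESeq2 and 0.0053 with RLE size factors. Scaling by library totals alone moved the median of all genes to -0.10. With 2 libraries per group and few reads for genes near 0 CPM, small changes of such genes were not detectable at this depth. Among all called genes, 1992 rises and 1010 falls were under 2-fold.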

Other observations

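Gene families grouped by symbol, chosen after their values were seen, moved unequally in *daf-16; ets-4*. Of 93 tested F-box B genes (*fbxb*), 62 fell and 1 rose, with a median log2 fold change of -2.51, while of the F-box A genes (*fbxa*) 37 (30.1%) rose and 24 (19.5%) fell. Among other adaptors of ubiquitin ligases, 12 of 19 Skp1-related genes (*skr*) and 11 of 22 MATH domain genes (*math*) fell, with 1 and 2 that rose. Of 17 chitinase-like genes (*chil*) 11 fell and 1 rose, and of 31 carboxylesterase genes (*cest*) 16 fell and 3 rose. In the opposite direction, 19 of 26 nuclear pore genes (*npp*) rose and 0 fell, and 8 of 17 genes of the TFIID complex (*taf*) rose and 0 fell. Genes for vacuolar protein sorting (*vps*) rose in 12 of 31 cases and fell in 1. Genes of the large subunit of the mitochondrial ribosome (*mrpl*) fell in 11 of 40 cases and rose in 0. These shares stand beside 19% of all genes tested that rose and 19.5% that fell. Several counts changed when 1 library was left out. Without the 4 °C library of replicate 1, 9 *npp*, 2 *taf* and 5 *vps* genes rose and 7 *mrpl* genes fell. Without the 20 °C library of replicate 2, 12 *npp*, 4 *taf* and 7 *vps* genes rose and 18 *mrpl* genes fell. The *taf* rises numbered 5 without either of the other libraries, and the *mrpl* falls 2 without the 20 °C library of replicate 1 and 3 without the 4 °C library of replicate 2. In the 4 fits with a library left out, 0 *fbxb*, 0 to 1 *chil*, 0 to 3 *cest*, 1 to 2 *skr* and 0 to 2 *mrpl* genes rose.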
